A study of Mus musculus with 12 samples.

Results

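Batch 2 of a bead array study of mouse colonocytes held 3 samples of germfree (GF) mice and 3 samples of conventionally raised (CONV) mice, which are 6 of the 12 samples in all. The 6 arrays were chosen by the batch that the labels give them, and they were normalized and tested on their own. All samples were colonocytes isolated from the colon of C57BL/6 mice and frozen, the GF mice having been kept in isolators without microbes, and no other allele, agent or age is given. The labels call the samples of a group biological replicates without naming an animal for each, so the p-values measure the spread between these samples. Below, GF4, GF5 and GF6 and CONV4, CONV5 and CONV6 are replicates 4 to 6 of each group.

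Colonocytes absorb water, salt and short-chain fatty acids, and the butyrate that gut bacteria make from fibre is a main fuel of their mitochondria. They also face the microbes directly: pattern receptors and low-level interferon signalling in the epithelium keep antimicrobial lectins, hydrogen peroxide-producing oxidases and antiviral genes switched on. The comparison of germfree with conventional mice asks which genes of the colonocyte differ when that microbiota is missing.

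The table has 15154 rows, of which 6288, covering 6283 genes, had a detection p below 0.05 on at least 3 of the 6 arrays and were tested. The absorptive colonocyte markers were bright: 12 of the 13 in the table passed this filter, and their summed signal was 97082 to 101018 on the GF arrays and 82362 to 93624 on the CONV arrays. Saa1, described below, is among them and was their single call, higher in GF. These sums therefore do not compare the amount of absorptive cells. The 13th, Epcam, an adhesion molecule of all epithelia, was detected on 0 arrays. All 6 goblet cell markers also passed, with a summed signal of 83634 to 106793 in GF and 96475 to 108846 in CONV, so secretory cells were in the preparations too. Of the 10 B cell and plasma cell markers with a row, 0 passed and 8 were detected on no array, while 8 of 14 T cell markers passed at low signal (a sum of 713 to 1056 on the GF arrays and 990 to 1523 on the CONV arrays). In such bulk samples fewer cells of a type and less RNA per cell cannot be told apart.

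The samples split by group and, within GF, by sample. The first principal component held 45.7% of the variance and set GF apart from CONV, and the second held 25.7% and set GF5 apart from the other arrays. GF4 and GF6 correlated at 0.990 across genes, while GF5 correlated with them at 0.975 and 0.977 (Pearson r; genes are not independent replicates), and the CONV arrays correlated with each other at 0.985 to 0.988. GF5 lay more than 2-fold from both other GF arrays in 192 genes, against 10 to 28 genes for each of the other 5 arrays. The median SD of a gene was 0.18 log2 units in GF and 0.17 in CONV, against 0.06 and 0.08 in batch 1.

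At an adjusted p below 0.05 (limma, Benjamini-Hochberg over all genes tested), 227 genes or 3.61% were called, 92 (1.46%) of them higher in GF and 135 (2.15%) lower. Counts of called list members below stand against these shares of all genes tested. At an unadjusted p below 0.05 there were 1358 genes. At least 2-fold changes were found in 43 of the genes that rose and in 65 of those that fell, and the smallest called change was 0.51 on the log2 scale. The median change over all genes was 0.01. Changes and levels below are on the log2 scale unless given as a fold. A fold given as "at least" is a bound for the dim signal only. It leaves out the spread between samples and can be smaller under other settings. The 3 GF and 3 CONV values did not overlap in 1796 genes (28.6%), which include all 227 called genes.

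The calls depended on single arrays. Leaving out GF5 raised the number called to 341, whereas it was 72 without GF4, 33 without GF6, 72 without CONV4, 24 without CONV5 and 29 without CONV6. No gene called over all 6 arrays changed direction in these fits. With each array left out in turn 20 genes kept their call throughout, 9 higher and 11 lower in GF, and they are shown array by array.

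**Figure D1:**
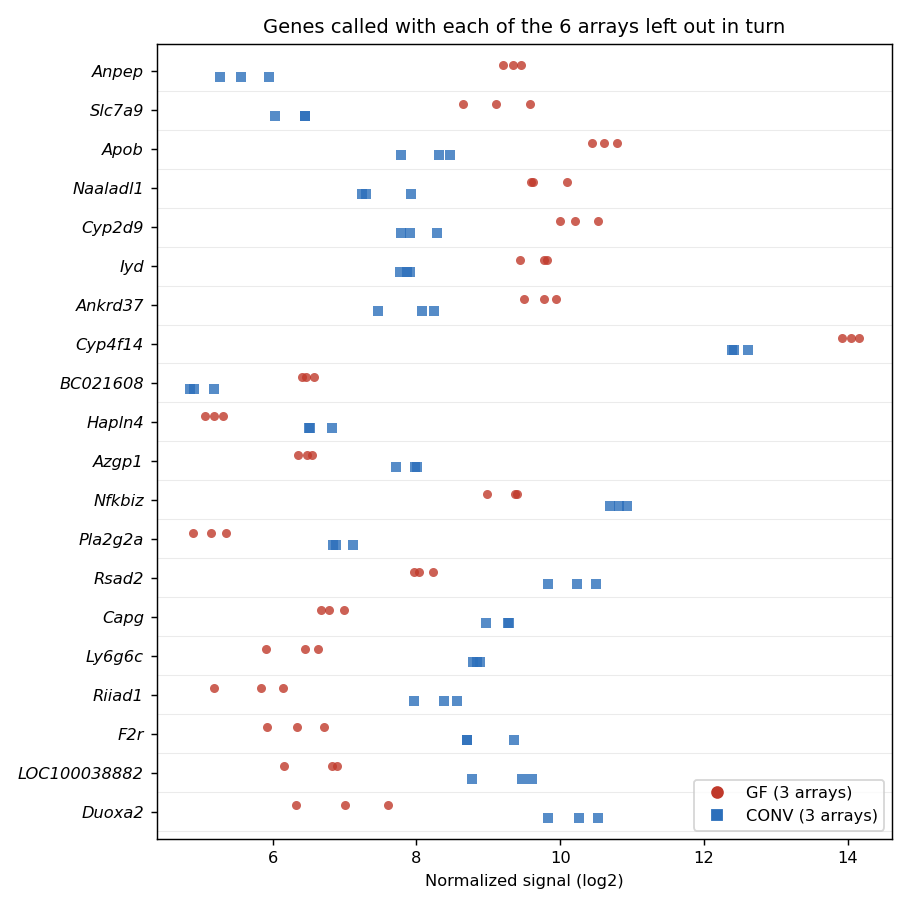
Normalized log2 signal (x axis) of the 20 genes that were called whichever of the 6 arrays was left out, ordered by change; circles are the 3 GF arrays and squares the 3 CONV arrays. In each gene the groups are separated, by about 4 log2 units in Anpep at the top and by about 3 in Duoxa2 at the bottom.

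The clearest rises in GF colonocytes were in the machinery that finishes digestion at the brush border, the microvillous face of an enterocyte. Of 9 brush-border peptidases tested 5 were called, all higher in GF, Anpep, Naaladl1, Xpnpep2 and Mep1b among them, and the list's median change was 1.01 against 0.01 over all genes. Anpep, aminopeptidase N, which frees amino acids from the ends of peptides, had log2 signals of 9.20, 9.35 and 9.46 on the GF arrays, against 5.27, 5.94 and 5.56 on the CONV arrays. The groups lay far apart with little spread in GF, a change of 3.75 ± 0.19 (SE, adjusted p = 0.000581), the largest rise of all called genes. Naaladl1, another membrane peptidase, measured 10.09, 9.63 and 9.59 in GF, against 7.25, 7.92 and 7.30 in CONV (change 2.28 ± 0.22, adjusted p = 0.00501). Neither gene's groups overlapped. Xpnpep2, which cuts before proline, changed by 1.28 ± 0.14 (adjusted p = 0.00866) and Mep1b, a meprin subunit that lies outside the naming rule, by 1.01 ± 0.18 (adjusted p = 0.0309). The partner meprin subunit Mep1a differed by 0.97 ± 0.23 and did not pass (adjusted p = 0.0651). Without single arrays between 2 (CONV5 or CONV6 left out) and 7 (GF5 left out) of the 9 peptidases were called, Anpep and Naaladl1 among them in every fit.

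Genes for the uptake and packaging of nutrients rose singly. Slc7a9, the transport subunit for cystine and basic amino acids, measured 9.11, 9.58 and 8.65 in GF, against 6.45, 6.44 and 6.03 in CONV (change 2.81 ± 0.24, adjusted p = 0.00361). No value of a group reached into the other. The other 2 amino acid transporters tested did not pass. Sis, sucrase-isomaltase, the disaccharidase of the small intestine, measured 10.08, 8.38 and 9.54 in GF, against 6.86, 6.60 and 6.57 in CONV (change 2.66 ± 0.39, adjusted p = 0.0199). It was the single call among 7 genes of sugar digestion, and the glucose carrier Slc5a1 differed by 0.47 ± 0.22 (adjusted p = 0.260). The call of Sis was lost without GF6, CONV4, CONV5 or CONV6 (highest adjusted p = 0.0863). Detection p-values of Sis and Slc7a9 lie off the steps that 1 probe can give and look averaged over probes, so detection on 2 of 3 GF arrays says little at these signals.

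Of 15 apolipoprotein and chylomicron genes 2 rose (Apob and Apoc3) and 2 fell (Clps and Plin2), with a median of -0.13. Apob, the scaffold protein of chylomicrons, measured 10.78, 10.44 and 10.61 in GF, against 8.46, 8.31 and 7.78 in CONV (change 2.43 ± 0.20, adjusted p = 0.00355). Apoc3 lay at background on the 3 CONV arrays and rose by 1.35 ± 0.27, or 2.55-fold (adjusted p = 0.0409). With single arrays left out its change was 1.02 to 1.55. Its call was lost without background correction, without the detection filter and on the deposited values turned to log2. Clps, colipase, the cofactor of pancreatic lipase, went the other way with 9.46, 9.68 and 9.35 in GF, against 10.73, 10.50 and 10.92 in CONV (change -1.22 ± 0.16, adjusted p = 0.0144). Plin2, which coats lipid droplets, also fell (-0.80 ± 0.12, adjusted p = 0.0216). Apoa1 was far above CONV in all 3 GF arrays, at 7.72, 10.34 and 7.23 against 5.42, 5.04 and 4.87, with GF5 far above GF4 and GF6, and it was not called (adjusted p = 0.0554).

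Markers of small-intestinal enterocytes moved with these genes. Their summed signal over the 12 of 20 that passed the filter was 7620 to 8818 on the GF arrays and 2630 to 3321 on the CONV arrays, with a median change of 1.27 and 5 of the 12 called, all higher in GF. Of the 12 genes, 11 were higher in GF and 10 had an unadjusted p below 0.05 (limma). That list shares 9 of its 12 tested genes with the digestion and lipid lists above, and of the other 3 (Fabp6, Rbp2 and Alpi) 0 were called. Rbp2 measured 8.9, 9.7 and 8.9 in GF, against 7.8, 8.3 and 8.5 in CONV, without overlap. Fabp6 measured 7.1, 8.5 and 7.6 in GF, against 6.8, 5.7 and 7.1 in CONV. Alpi measured 6.6, 5.9 and 6.9 in GF, against 6.1, 7.0 and 6.9 in CONV. Further defining markers of the small intestine were at background in both groups: Fabp2, Slc2a2, Slc10a2, Cyp3a11, Enpep and Gata4 were detected on 0 of the 6 arrays. The epithelial gene Epcam was also detected on 0 arrays, so an undetected row does not show absence. The part of a shift in cell type or of position along the gut in these rises was not tested.

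Of 32 cytochrome P450 and conjugation genes, which modify steroids, fatty acids and foreign compounds, 8 were called higher and 0 lower, with a median of 0.35. That is 25%, against 3.61% of all genes tested. Cyp2d9, a steroid hydroxylase of mouse liver, averaged 10.24 ± 0.27 in GF and 7.99 ± 0.26 in CONV (SD, n = 3 each), with no overlap (change 2.25 ± 0.19, adjusted p = 0.00361). Cyp4f14, a fatty acid hydroxylase, was among the brightest genes that rose, at 14.16, 13.91 and 14.05 in GF, against 12.61, 12.42 and 12.39 in CONV (change 1.56 ± 0.13, adjusted p = 0.00355). Both kept their call with every array left out. Cyp27a1, the sterol hydroxylase of the acidic bile acid pathway (1.64 ± 0.19), Cyp3a13, a drug-metabolizing enzyme (1.04 ± 0.13), and Ephx2, soluble epoxide hydrolase (0.69 ± 0.12), were also higher, at adjusted p of 0.0110, 0.0143 and 0.0278. Without CONV5 or CONV6 the list had 2 calls, and without GF5 it had 8 higher and 1 lower.

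Of the metallothioneins, small cysteine-rich proteins that hold zinc and copper, Mt1 and Mt2 rose. Mt1, among the brightest genes, measured 15.70, 15.73 and 15.66 in GF, against 14.57, 14.03 and 14.07 in CONV (change 1.47 ± 0.17, adjusted p = 0.00869). Mt2 was dimmer and detected on 2 of 3 CONV arrays, with 8.39, 8.05 and 7.94 in GF, against 5.30, 5.62 and 6.55 in CONV (change 2.30 ± 0.31, adjusted p = 0.0156). Neither gene's groups overlapped, but the call of Mt1 was lost without CONV5 or CONV6 and that of Mt2 without GF4, GF6 or CONV5. Mt3, the third one tested and outside the naming rule, measured 8.20, 6.95 and 8.01 in GF, against 8.54, 9.05 and 9.05 in CONV, a difference of -1.16 ± 0.33 that did not pass (adjusted p = 0.102). Mt1 and Mt2 were the 2 calls among 17 genes of metal ion handling.

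Other large rises had no list in common. Iyd, which removes iodine from iodotyrosines, measured 9.81, 9.44 and 9.78 in GF, against 7.77, 7.91 and 7.87 in CONV (change 1.83 ± 0.14, adjusted p = 0.00329). Ankrd37, a target of the hypoxia-inducible factor in other cells, measured 9.78, 9.94 and 9.49 in GF, against 8.07, 7.46 and 8.24 in CONV (change 1.81 ± 0.22, adjusted p = 0.0130). It was the single call among 19 hypoxia targets (5.26%, near the 3.61% of all genes tested). Both genes were called with every array left out. Creatine kinases split: Ckmt2, a mitochondrial form, rose by 1.76 ± 0.30 (adjusted p = 0.0278), while Ckb, the cytosolic brain form that colonocytes also use, fell to 9.82, 8.96 and 9.30 in GF, against 11.53, 12.52 and 12.21 in CONV (change -2.73 ± 0.30, adjusted p = 0.00855). Nrn1, a membrane-anchored neurite factor, rose by 1.78 ± 0.26 (adjusted p = 0.0199). Bmper, an extracellular modulator of BMP signals, lay at background in CONV, so its rise was at least 3.62-fold (adjusted p = 0.0363), a call lost without background correction, without the detection filter, on the deposited values turned to log2, and without any 1 array other than GF5. Neu1, the lysosomal sialidase (0.95 ± 0.14), and Hsd11b2, which inactivates glucocorticoids (0.88 ± 0.16), had adjusted p of 0.0199 and 0.0312.

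**Figure D2:**
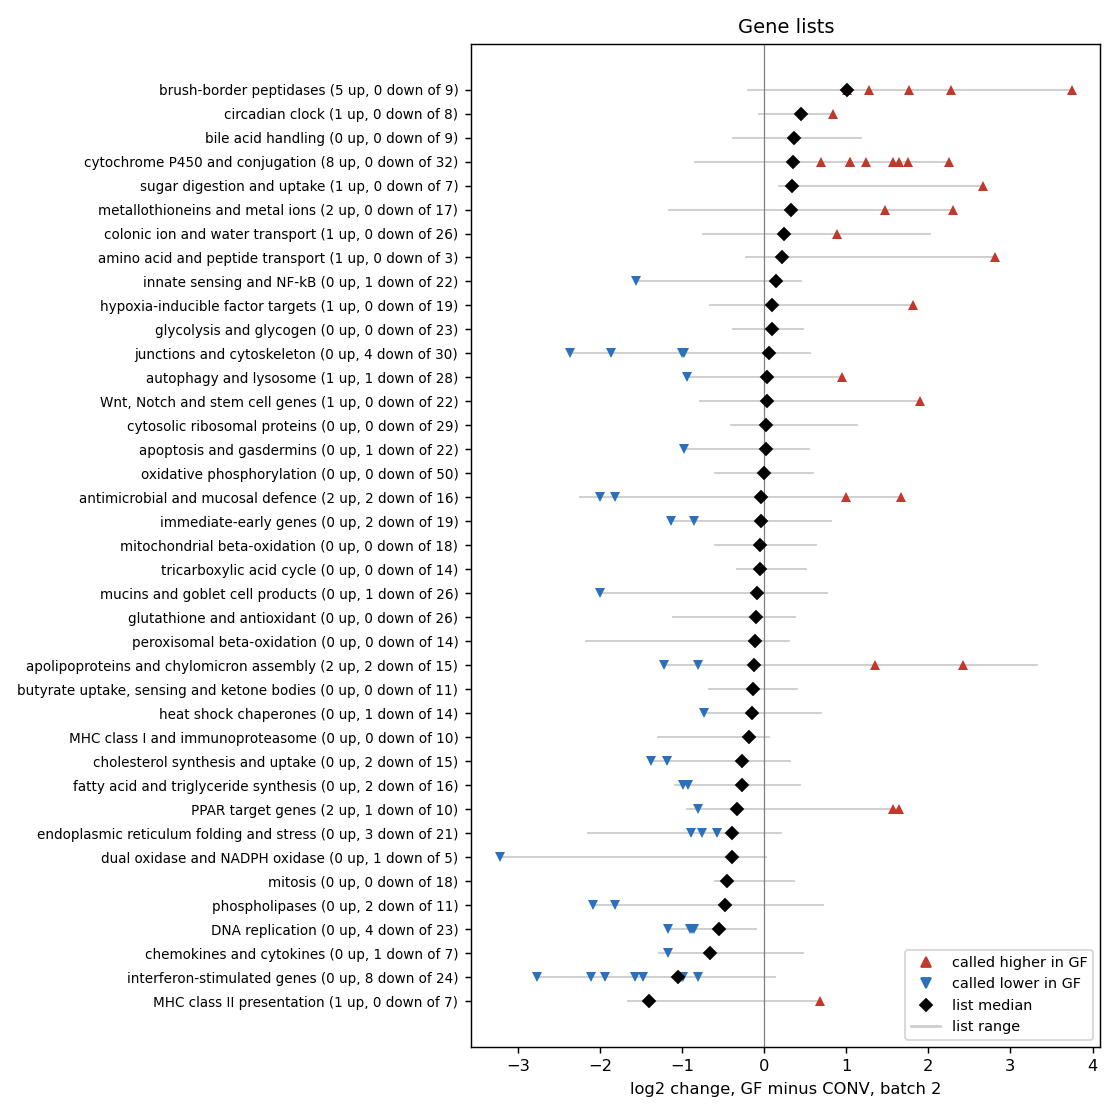
Log2 change, GF minus CONV, of the gene lists (rows, ordered by median): diamonds are list medians, grey lines the range of members, upward triangles members called higher and downward triangles members called lower in GF. The peptidases sit at the top with a median of 1.01, the interferon-stimulated and MHC class II genes at the bottom with medians of -1.05 and -1.40.

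Interferon-stimulated genes, the antiviral effectors that interferons switch on, fell in GF where they were called. Of 24 tested 8 were called, all lower, and the list's median change was -1.05 against 0.01 over all genes. In the 250 bases before the transcription start, promoters from RefSeq (build GRCm38.p6) of 20 of the 24 genes were searched on both strands for GAAA followed after any 2 bases (NN) by GAAA again, the core of the element bound by interferon-activated factors. It was found in 8 of these 20 genes (40%), against 936 of 27025 genes (3.46%) with a promoter in the table. Among genes called lower 3 of 7 held it, and among those not called 5 of 13. The promoters of these 3 called genes are shown, with each match in capitals, overlapping matches running together, and each printed on the gene's own strand, which is the minus strand in all 3.
Rsad2, chr12:26456453-26456702: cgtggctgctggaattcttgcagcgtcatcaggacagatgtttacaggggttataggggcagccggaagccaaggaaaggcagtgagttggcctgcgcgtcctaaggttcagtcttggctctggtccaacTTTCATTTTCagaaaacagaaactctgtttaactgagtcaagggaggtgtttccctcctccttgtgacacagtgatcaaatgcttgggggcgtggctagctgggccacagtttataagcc
Bst2, chr8:71537473-71537722: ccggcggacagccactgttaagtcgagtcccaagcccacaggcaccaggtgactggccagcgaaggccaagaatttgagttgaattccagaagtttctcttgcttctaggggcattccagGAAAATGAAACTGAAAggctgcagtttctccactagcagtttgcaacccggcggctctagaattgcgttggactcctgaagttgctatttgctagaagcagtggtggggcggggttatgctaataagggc
Oas1g, chr5:120887614-120887863: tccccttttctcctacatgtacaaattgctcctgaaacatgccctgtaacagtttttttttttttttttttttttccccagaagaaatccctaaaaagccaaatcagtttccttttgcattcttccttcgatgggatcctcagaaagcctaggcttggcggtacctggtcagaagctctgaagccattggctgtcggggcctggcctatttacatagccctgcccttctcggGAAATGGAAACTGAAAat
The match nearest the start ended 110 bases before it in Rsad2, where it lies on the opposite strand, 114 in Bst2 and 2 in Oas1g, and Bst2 and Oas1g each hold 2 overlapping matches. A match of letters describes the window and shows no binding.

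Rsad2, which codes for viperin, an enzyme that makes a chain-terminating nucleotide, was the firmest of these genes. It measured 8.23, 7.96 and 8.04 in GF, against 10.24, 10.50 and 9.82 in CONV (change -2.11 ± 0.19, adjusted p = 0.00361), and was called with every array left out. Oas2, an oligoadenylate synthetase that senses double-stranded RNA, had the largest fall at 5.23, 6.65 and 5.31 in GF, against 8.67, 8.75 and 8.08 in CONV (change -2.77 ± 0.39, adjusted p = 0.0179). Oas2 was detected on 1 of 3 GF arrays, and GF5, the highest of them, was still below every CONV array. Bst2, the virus tether at the cell surface, lay at background on the 3 GF arrays, so its fall was at least 2.76-fold (adjusted p = 0.0214). Oas1g measured 8.25, 8.80 and 8.17 in GF, against 9.63, 9.43 and 9.13 in CONV (change -0.99 ± 0.21, adjusted p = 0.0494).

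The other called members were Phf11d (-1.57 ± 0.23, adjusted p = 0.0199), Oasl2 (-1.94 ± 0.39, adjusted p = 0.0427), Lgals3bp, a secreted glycoprotein (-0.81 ± 0.17, adjusted p = 0.0486), and Isg20, an RNA exonuclease, which no GF array detected and whose fall was at least 2.01-fold (adjusted p = 0.0216). Among bright members that did not pass, Ifi27 differed by -0.67 ± 0.34 (adjusted p = 0.293) and Samd9l by 0.12 ± 0.15 (adjusted p = 0.669). With an array left out the number of calls was 1 without GF6, 2 without CONV4 or CONV5, 3 without GF4 or CONV6 and 11 without GF5, while the list's median stayed between -1.21 and -0.92. Of the 8 T cell markers tested 0 were called with limma and 2 had an unadjusted p below 0.05. Of the 8, 6 were lower in GF and 2 higher, with a median of -0.35. The ranges of their summed signal, given above, overlapped between GF and CONV through GF4 (1056) and CONV6 (990). The part of the share of T cells in the interferon falls was not tested.

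MHC class II genes, which present peptides to helper T cells, had the lowest median of the lists, -1.40, and it rested on CONV4. H2-Aa measured 6.34, 8.27 and 5.70 in GF, against 11.54, 6.61 and 6.48 in CONV. Cd74, the invariant chain, measured 7.91, 9.75 and 7.71 in GF, against 12.73, 9.28 and 7.84 in CONV. H2-Ab1 had the same pattern, 7.81, 9.03 and 7.64 in GF against 11.71, 8.87 and 7.83 in CONV. CONV4 was thus far above all other arrays, GF5 was above the other GF arrays and above CONV5 and CONV6, and the groups overlapped in all 3 genes (adjusted p = 0.440 to 0.564). Without CONV4 the median over the 7 genes was -0.10. In batch 1, normalized on its own, the same 7 genes had a median of -1.42, and 6 were called lower. An unadjusted p below 0.05 was reached in batch 2 by 3 of the 7, the rise of Ctss among them. The single call of the list in batch 2 was Ctss, the protease cathepsin S, which rose by 0.67 ± 0.14 (adjusted p = 0.0455). It was called in 0 of the fits that left out an array. MHC class I and immunoproteasome genes had 0 calls among 10, with 2 at an unadjusted p below 0.05 and a median of -0.19.

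**Figure D3:**
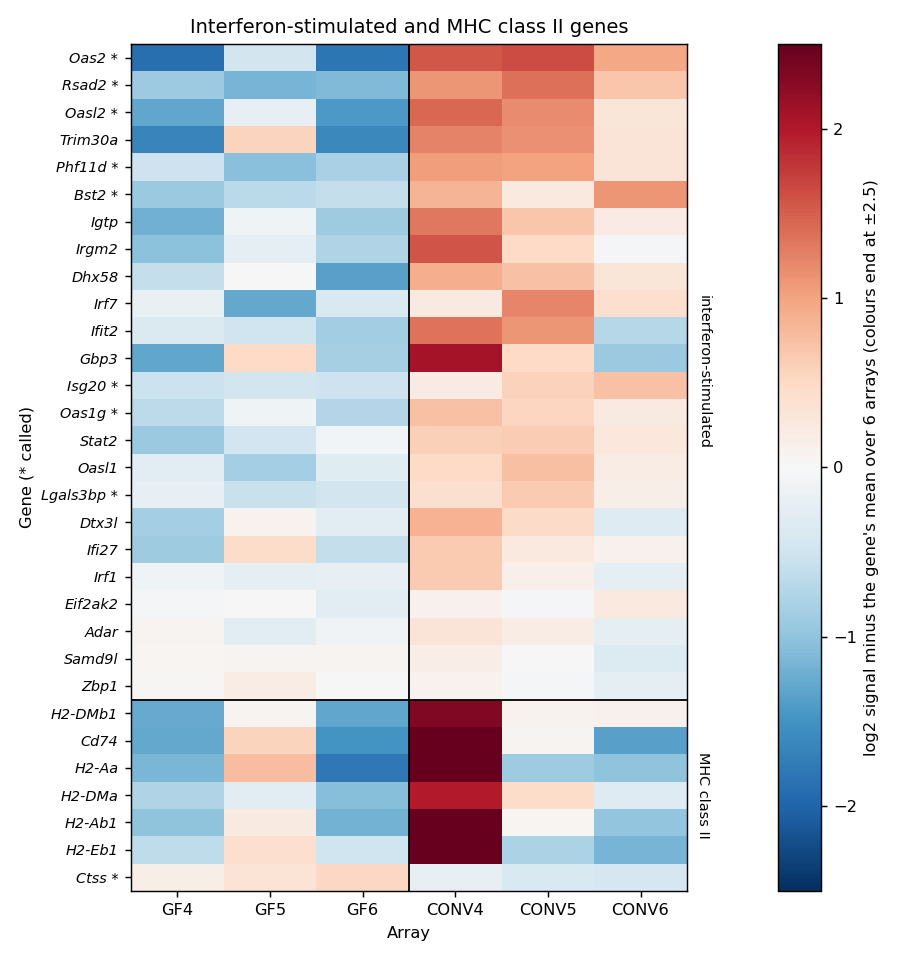
Log2 signal minus each gene's mean over the 6 arrays (colour) for 24 interferon-stimulated and 7 MHC class II genes (rows) on the GF and CONV arrays (columns); a star marks called genes. The interferon genes with stars are low on the 3 GF arrays and high on the 3 CONV arrays, while the class II genes other than Ctss are high on CONV4 above all.

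Duoxa2, the maturation factor of dual oxidase 2, which releases hydrogen peroxide at the epithelial surface, had the largest fall of all called genes. It measured 6.33, 7.61 and 7.01 in GF, against 9.82, 10.53 and 10.26 in CONV (change -3.22 ± 0.33, adjusted p = 0.00582). Nfkbiz, an inducible regulator of NF-kB that shapes antimicrobial gene expression, measured 9.40, 8.98 and 9.37 in GF, against 10.93, 10.69 and 10.81 in CONV (change -1.56 ± 0.15, adjusted p = 0.00501). Both were separated by more than 1 log2 unit between the nearest arrays and kept their call with every array left out. They were the single calls among 5 oxidase genes and among 22 genes of innate sensing, whose median was 0.14. For innate sensing that is 4.55% of the genes, near the 3.61% called over all genes tested.

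Of 16 antimicrobial genes 2 rose and 2 fell. With an array left out the list had between 1 call (without GF6, CONV5 or CONV6) and 6 calls (without GF5). Pla2g2a, a secreted bactericidal phospholipase that carries a natural loss-of-function allele in C57BL/6 mice, lay at background in GF, at 5.15, 4.90 and 5.35, against 6.88, 6.84 and 7.12 in CONV, so its fall was at least 3.34-fold (adjusted p = 0.00361). Itln1, an intelectin that binds microbial sugars, was detected on 1 of 3 GF arrays and measured 5.34, 6.35 and 5.44 in GF, against 7.49, 7.35 and 8.31 in CONV (change -2.01 ± 0.34, adjusted p = 0.0278). Its call was lost without any 1 array other than GF5. The serum amyloid A genes Saa1 and Saa2 went the other way. Saa1 measured 13.68, 14.22 and 13.80 in GF, against 12.56, 11.93 and 12.22 in CONV (change 1.66 ± 0.21, adjusted p = 0.0130), a call lost without GF6, CONV5 or CONV6. The dim Saa2 changed by 1.00 ± 0.21 (adjusted p = 0.0483), a call lost under 6 of the 11 other settings that tested it. Zg16, the goblet cell lectin, was among the brightest genes in both groups (15.74 ± 0.02 in GF and 15.70 ± 0.06 in CONV, SD, n = 3 each). GF4, GF6, CONV5 and CONV6 hold the same Zg16 value, 15.73, since quantile normalization gives equal ranks equal values. These SDs therefore do not measure precision, and equal levels are not shown. Cxcl9, a chemokine that draws T cells, lay at background in GF, so its fall was at least 1.90-fold (adjusted p = 0.0247).

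Of 23 DNA replication genes tested 4 were called (17.4%, against 3.61% of all genes), all lower, 19 had an unadjusted p below 0.05, and the median was -0.56. All 4 act at the replication origin: Mcm2, Mcm5 and Mcm6 are subunits of the helicase ring, and Mcm10 helps to start it. Mcm5 measured 9.94, 9.39 and 9.43 in GF, against 10.69, 10.76 and 10.83 in CONV (change -1.17 ± 0.17, adjusted p = 0.0199). Mcm2 measured 8.31, 8.31 and 8.18 in GF, against 8.97, 9.31 and 9.16 in CONV (change -0.88 ± 0.13, adjusted p = 0.0204). Mcm6 and Mcm10 changed by -0.90 ± 0.13 and -0.86 ± 0.14 (adjusted p = 0.0199 and 0.0247). Of bright members that did not pass, Rpa1, which coats single-stranded DNA, differed by -0.33 ± 0.12 and Pold2, a polymerase subunit, by -0.45 ± 0.19 (adjusted p = 0.168 and 0.222). The list had 0 calls without GF6, CONV5 or CONV6, while its median stayed between -0.59 and -0.40. Mitosis genes had 0 calls among 18, with 11 at an unadjusted p below 0.05 and a median of -0.45. The summed signal of 7 stem and transit-amplifying cell markers was 6453 to 7395 in GF and 8117 to 8715 in CONV, but Mcm5, counted above, is among them and was their single call. Without it the sum was 5779 to 6425 in GF and 6466 to 7001 in CONV. Sox9, by far the brightest of the others, made most of that sum and differed by -0.09 ± 0.12 (adjusted p = 0.723). The sum therefore says little about the dimmer markers, and the part of the share of dividing cells was not tested.

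Lipid synthesis fell at single steps. Mvd, which decarboxylates mevalonate diphosphate on the way to cholesterol, averaged 8.73 ± 0.24 in GF and 10.11 ± 0.34 in CONV (SD, n = 3 each) (change -1.38 ± 0.20, adjusted p = 0.0199). It was among 2 calls, both lower, in 15 cholesterol genes with a median of -0.27. Scd1, the stearoyl-CoA desaturase (-0.92 ± 0.14, adjusted p = 0.0199), and Fads1, the delta-5 desaturase (-0.99 ± 0.17, adjusted p = 0.0281), were 2 calls among 16 genes of fatty acid synthesis (12.5%, against 3.61% of all genes). The calls of Mvd, Scd1 and Fads1 were each lost without GF4, GF6, CONV5 or CONV6, and that of Mvd also without CONV4 (highest adjusted p between 0.0757 and 0.105). Mgll, which releases fatty acids from monoglycerides, measured 7.80, 6.47 and 7.79 in GF, against 9.14, 10.28 and 9.42 in CONV (change -2.26 ± 0.42, adjusted p = 0.0337), and Plcd3, a phospholipase C, lay at background in GF, so its fall was at least 4.01-fold (adjusted p = 0.0150).

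The list of folding and stress in the endoplasmic reticulum had 3 calls among 21 genes, all lower, and a median of -0.39. It had 0 calls without GF4, GF6, CONV5 or CONV6, 1 without CONV4 and 4 without GF5, and Pdia4 was called in 0 of these 6 fits. The 3 were Hyou1, a chaperone of the Hsp70 family (-0.89 ± 0.17, adjusted p = 0.0353), Pdia4, a disulfide isomerase (-0.57 ± 0.11, adjusted p = 0.0409), and Asns, asparagine synthetase, a target of the stress factor Atf4. Asns averaged 8.64 ± 0.07 in GF and 9.40 ± 0.12 in CONV (SD, n = 3 each), a change of -0.76 ± 0.12 (adjusted p = 0.0247), although it is listed as not detected on any GF array, with a detection p that looks averaged over probes. The stress factors Atf3 and Klf6 fell too, 2 calls among 19 immediate-early genes (10.5%, against 3.61% of all genes). Atf3 measured 9.15, 8.67 and 8.96 in GF, against 9.72, 10.38 and 10.09 in CONV (change -1.14 ± 0.20, adjusted p = 0.0294), and Klf6 changed by -0.85 ± 0.15 (adjusted p = 0.0281). Hsp90aa1 was the single call among 14 heat shock chaperones (-0.74 ± 0.13, adjusted p = 0.0281). That is 7.14% of the list, near the 3.61% of all genes. Of the 6 fits with an array left out, Atf3 was called in 2, and Klf6 and Hsp90aa1 were each called in 1.

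Structural and surface genes gave several of the largest falls. Of 30 junction and cytoskeleton genes 4 were called lower and 0 higher (13.3%, against 3.61% of all genes), with a median of 0.06. Capg, which caps actin filaments, measured 6.99, 6.67 and 6.78 in GF, against 8.97, 9.29 and 9.27 in CONV (change -2.36 ± 0.15, adjusted p = 0.00150), and was called with every array left out. Cldn4, a tight junction claudin, measured 10.25, 9.13 and 9.72 in GF, against 10.79, 12.03 and 11.88 in CONV (change -1.86 ± 0.39, adjusted p = 0.0458). Its call was lost without any 1 array other than CONV4, without the detection filter, and with an intensity trend and robust eBayes. The keratins Krt7 and Krt18 changed by -1.01 ± 0.13 and -0.98 ± 0.15 (adjusted p = 0.0156 and 0.0233). F2r, the thrombin receptor, measured 6.72, 6.34 and 5.92 in GF, against 9.36, 8.70 and 8.70 in CONV (change -2.59 ± 0.26, adjusted p = 0.00501), and Ly6g6c, a lipid-anchored surface protein, measured 5.90, 6.45 and 6.62 in GF, against 8.79, 8.85 and 8.88 in CONV (change -2.51 ± 0.19, adjusted p = 0.00329). In both, the highest GF array lay about 2 log2 units below the lowest CONV array.

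Sprr1a, a cornified envelope protein that marks injured gut epithelium, lay at background in GF, at 4.82, 4.64 and 4.79, against 5.97, 7.64 and 8.13 in CONV, and at least 4.40-fold lower (adjusted p = 0.0395). Its call was lost without any 1 array other than CONV4, without background correction and without the detection filter. Epop, a partner of the Polycomb repressive complex, measured 6.71, 4.62 and 6.56 in GF, against 8.10, 9.87 and 9.29 in CONV (change -3.12 ± 0.63, adjusted p = 0.0427). The spread within each group was over 1 log2 unit, and the call was lost without every array but GF5. Riiad1 measured 6.15, 5.84 and 5.19 in GF, against 7.97, 8.39 and 8.57 in CONV (change -2.58 ± 0.27, adjusted p = 0.00598). Pbp2, a phosphatidylethanolamine-binding protein, was below background in GF and at least 3.81-fold lower (adjusted p = 0.0278). Bik, a trigger of apoptosis, and Ctsz, a lysosomal protease, changed by -0.98 ± 0.19 and -0.94 ± 0.18 (adjusted p = 0.0379 and 0.0341), each the single fall of its list.

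Azgp1, Hapln4 and BC021608 also kept their call with every array left out and lie outside the naming rule. Azgp1, a lipid-mobilising glycoprotein, changed by -1.45 ± 0.13 (adjusted p = 0.00388), Hapln4, a hyaluronan link protein, was below background in GF and at least 2.66-fold lower (adjusted p = 0.00501), and BC021608 lay at background in CONV, so its rise was at least 2.62-fold (adjusted p = 0.00361). A row named LOC100038882 fell by 2.65 on the log2 scale (adjusted p = 0.00598).

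In the fuel pathways of the colonocyte, limma on the 6 arrays called 0 genes among 50 of oxidative phosphorylation, 14 of the tricarboxylic acid cycle, 18 of mitochondrial beta-oxidation, 11 of butyrate uptake and ketone bodies, and 23 of glycolysis, against 3.61% of all genes. At an unadjusted p below 0.05 there were 4, 0, 7, 2 and 6, against 1358 of all 6283 genes, and their medians were 0.00, -0.05, -0.05, -0.13 and 0.10. Acss1, which activates acetate in mitochondria, differed by -0.13 ± 0.15 (adjusted p = 0.650). A p that misses the threshold does not show that the levels were alike. Without GF5 1 gene of oxidative phosphorylation was called, lower in GF, and 1 or 2 genes of beta-oxidation were called under 8 of the 13 other settings with all arrays.

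Set against batch 1, normalized on its own and fitted for the same genes, the effect of GF differed in 615 of 6283 genes (9.79%; limma interaction, adjusted p below 0.05), 288 higher and 327 lower in batch 2. Of the 227 genes called in batch 2, 188 had the same sign in batch 1, where 3286 of the 6283 genes were called, and 150 were also called there in that direction, 62 were not called and 15 were called in the opposite direction, and 91 differed by the interaction. Anpep, Duoxa2, Rsad2, Mt1 and Saa1 were close to their batch 1 changes of 3.81, -2.92, -1.65, 1.38 and 1.67, and their differences did not pass (adjusted p = 0.193 to 0.996).

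Several falls were deeper in batch 2. F2r changed by -2.59 in batch 2, while in batch 1 it lay at 5.22 in both groups and was detected on 1 of 3 GF and 2 of 3 CONV arrays (adjusted p of the difference 0.000586). Ly6g6c changed by -2.51 against -0.22 in batch 1, where its levels of 7.68 in GF and 7.90 in CONV were detected on all arrays (adjusted p of the difference 0.000209). Krt7 changed by -1.01 against -0.03 (0.00244) and Cldn4 by -1.86 against 0.28 (0.0117). The dim genes Epop, Sprr1a, Pbp2 and Hoxd10 also fell in batch 2 and had batch 1 changes of -0.13, -0.41, 0.31 and 0.04 (adjusted p of the difference 0.0252, 0.0389, 0.00552 and 0.0110).

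Other genes were called in opposite directions in the 2 batches. Clps changed by -1.22 in batch 2 against 1.20 in batch 1 (adjusted p of the difference 4.11e-05), Atf3 by -1.14 against 1.29 (0.000434), Gpr20, an orphan receptor, by -1.32 against 0.78 (0.000230) and Maged1 by -0.90 against 0.40 (6.55e-05). Genes of folding and stress in the endoplasmic reticulum differed in 11 of 21, all lower in batch 2, with medians of -0.39 in batch 2 and 0.15 in batch 1. Immediate-early genes differed in 10 of 19, all lower in batch 2, where Egr1 changed by 0.01 against 2.00 in batch 1 (0.00129).

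Clock genes differed in 5 of 8, none of which was called in batch 2. Dbp, an output gene of the clock, measured 10.44, 9.52 and 9.94 in GF, against 9.63, 9.48 and 9.48 in CONV, a change of 0.43 against 4.30 in batch 1 (adjusted p of the difference 2.04e-05). Per1, a repressor of the clock, changed by 0.24 against 2.10 (0.000165). Arntl and Npas2, its activators, changed by 0.46 and 0.54 against -2.70 and -1.27 (5.75e-05 and 0.00123). In batch 1 the activators and the repressor thus moved in opposite directions. The labels used here give no time of day, and its part was not tested.

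**Figure D4:**
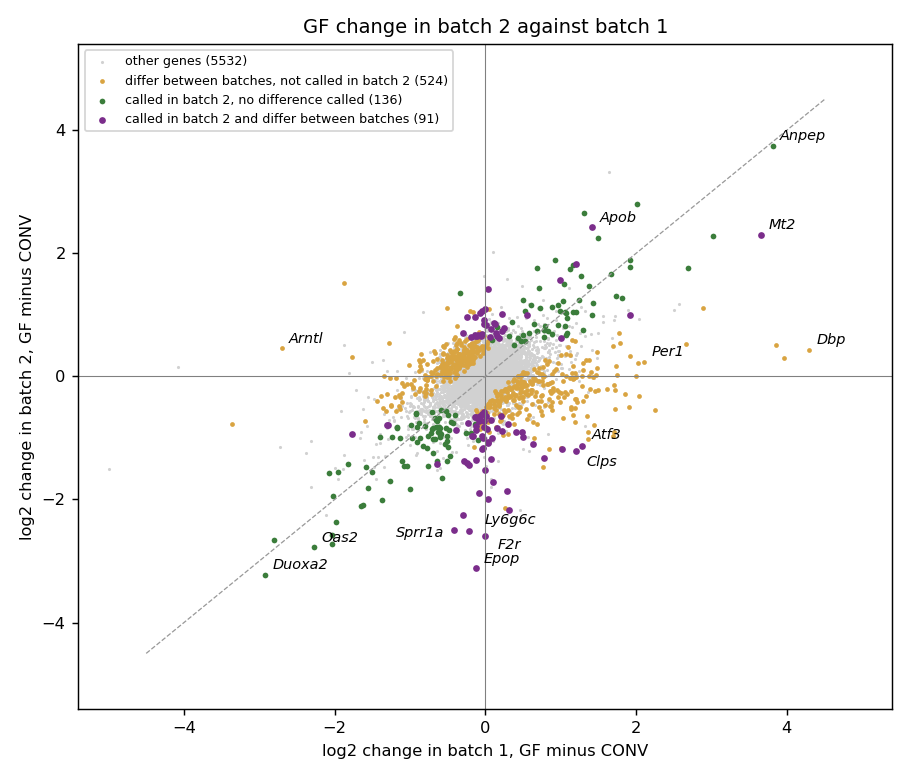
Log2 change, GF minus CONV, in batch 2 (y axis) against batch 1 (x axis) for 6283 genes, each batch normalized alone; colours give the call in batch 2 and the call of the difference between batches, and the dashed line marks equal changes. Anpep, Oas2 and Duoxa2 lie near the line, F2r, Ly6g6c and Epop lie far below it near 0 on the x axis, and Dbp, Per1 and Arntl lie near 0 on the y axis.

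GF5 stood apart from GF4 and GF6 in some Hox genes and some transport and hormone genes, all chosen after their values were seen and outside the naming rule. Hox genes set the identity of a region along the body axis. Hoxb5 measured 10.31, 8.13 and 9.92 in GF4, GF5 and GF6, against 10.27, 10.19 and 10.02 in CONV. Hoxb6 measured 10.13, 7.83 and 10.16 in GF, against an average of 9.81 ± 0.22 in CONV (SD, n = 3). Hoxb7 was likewise 11.48, 9.33 and 11.42 in GF, against 11.19, 11.33 and 11.03 in CONV. GF5 was well below the other 5 arrays in all 3. Over the 12 Hox genes tested GF5 was the lowest GF array in 7 and the highest in 3, which were Hoxa7, Hoxc8 and Hoxd10. Of the 12, 1 was called, Hoxd10, which was not above background in GF and at least 3.60-fold lower there (adjusted p = 0.0303).

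Of genes that were higher in GF5 than in GF4 and GF6, 5 were picked for that. Fxyd4, a sodium pump modulator, measured 7.82, 11.30 and 8.42 in GF, against 6.37, 7.09 and 8.02 in CONV. Scnn1g, a subunit of the epithelial sodium channel, measured 5.89, 7.91 and 6.12 in GF, against 5.18, 5.11 and 4.89 in CONV, and Aqp8, a water channel of surface colonocytes, measured 10.04, 12.18 and 10.52 in GF, against 11.38, 11.95 and 11.64 in CONV. The hormone genes Insl5 and Pyy were highest in GF5 of all arrays, at 11.62 and 12.77. None of these 5 genes was called. They do not stand for their groups: of the 7 enteroendocrine markers tested, GF5 was highest of the GF arrays in Insl5 and Pyy and lowest in the other 5, and the transporter genes Slc51a and Slc4a1 were lower in GF5 than in GF4 and GF6.

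**Figure D5:**
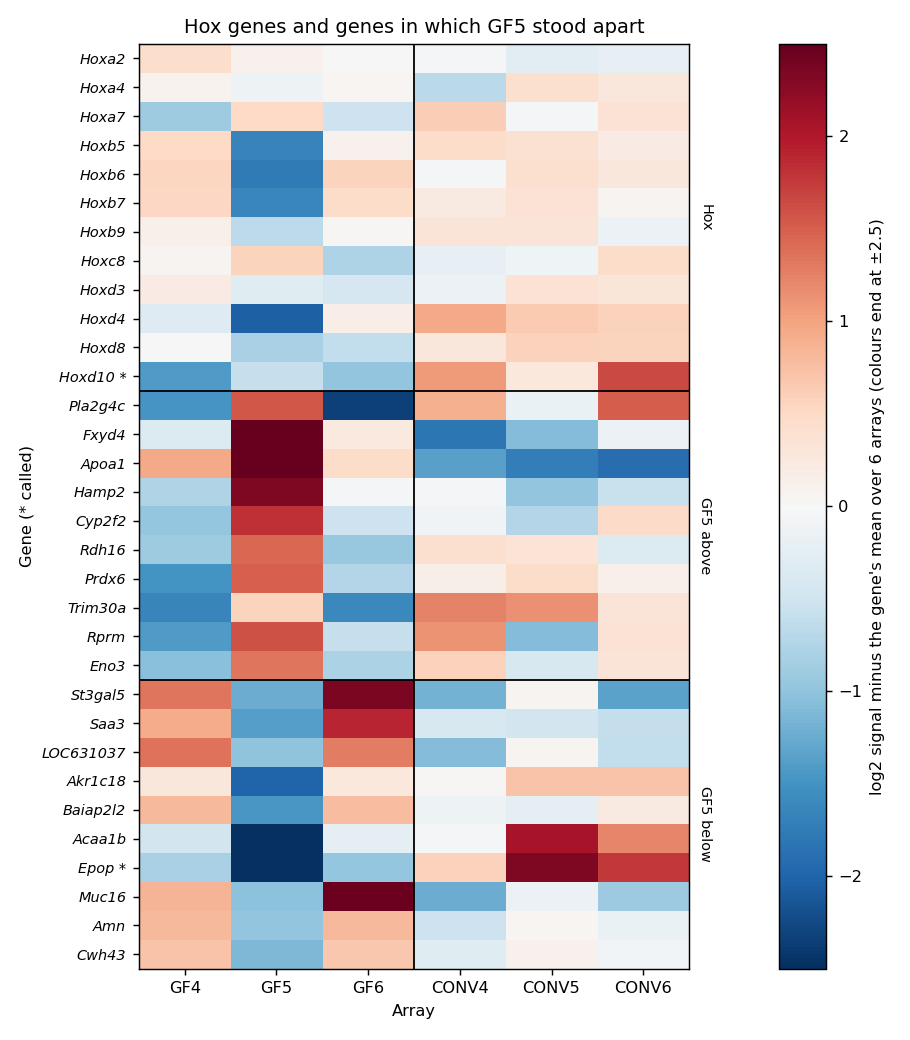
Log2 signal minus each gene's mean over the 6 arrays (colour) for the 12 Hox genes tested and for genes in which GF5 lay farthest above or below GF4 and GF6 (rows) on the GF and CONV arrays (columns); a star marks called genes. Hoxb5, Hoxb6 and Hoxb7 are low on GF5 alone, and Hoxd4 is lowest there.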

How the data were processed

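Colonocyte RNA of 6 GF and 6 CONV samples was extracted with Trizol, amplified and hybridised to Illumina bead arrays, per the labels' protocols, and the 6 arrays of batch 2 were analysed here. The deposited table gives natural log signals and a detection p-value per row. The base was settled from the values: 96.7% to 97.6% of them, raised from natural log, end at 7 significant digits, against at most 0.897% with base 2. Arrays of batch 2 share 1831 to 1992 exact values with each other, against 186 to 216 in batch 1, which marks a step before deposit that the labels do not describe. In the submitters' processing notes limma is the only tool, with no version.

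Signals were raised from natural log to intensity, corrected with normexp using the negative-control mean and SD inferred from the detection p-values, given an offset of 16, turned to log2 and quantile normalized over the 6 arrays (limma 3.58.1, R 4.3.3). A row was kept where 3 or more arrays had a detection p under 0.05, and the brightest row stood for a gene. This filter left out 540 bright rows. Of the rows 11696 carry a current symbol, 2547 were updated through the GRCm38.p6 gene table, and 877 were not matched. GF minus CONV was tested two-sided with lmFit and eBayes, adjusted by Benjamini-Hochberg, at 0.05. The difference between batches was the interaction over 12 arrays, each batch normalized alone. An exact permutation test of 3 against 3 samples cannot go below 0.1 and was not used. A gene at background on every array of a group, other than Apoc3 and Asns, is given as a bound. The bound sets the bright group's mean against the higher of the dim value and the lowest signal detected on each array. It leaves out the spread between samples and is no confidence limit. The number of arrays limits the precision. On simulated data the fit of batch 2 called 17 of 67 genes changed 1.5-fold, 61 of 67 changed 2-fold and 65 of 66 changed 4-fold. It also called 7 of 6083 unchanged genes. Most 1.5-fold changes were thus missed in the simulation. Its noise was normal and independent between arrays, with the SD that the fit itself gave. No simulated array stood apart as GF5 does, so the rates in the real data can differ from these.

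The members and the gene lists were chosen with earlier results of these data known. Named genes are the 14 largest called rises and falls, up to 4 called and 2 bright uncalled members of each list, and the 10 smallest adjusted p-values of the difference between batches in each direction. Chosen after their values were seen were Mep1b, Ephx2, Apoa1, Mt3, Oas1g, Oasl2, Isg20, Lgals3bp, H2-Aa, Azgp1, Hapln4, BC021608, the Hox genes, the GF5 transport and hormone genes and the markers. The planned setting expected intensities per probe, whereas the table holds log values per row. Same-numbered GF and CONV samples did not deviate together from their group means (correlations of -0.19, -0.30 and -0.09), and the samples were fitted unpaired. The deviations of the few arrays of a group depend on each other, so these correlations cannot exclude a pairing by number. Other background corrections, normalizations, filters and fits were tried, and each array was left out in turn. Some named genes are not reported here.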

Additional observations from a re-analysis of the deposited data

Results flagged for a closer look

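The effect of GF differed between the batches in 615 genes by the limma interaction, and the values here are the batch 2 change minus the batch 1 change on the log2 scale. In these genes the test of the difference itself passed an adjusted p of 0.05, and no cause was tested.

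Among genes that rose in batch 2, the difference was 1.01 for Apob, 0.78 for Mep1b, 0.57 for Cyp4f14, 0.63 for Iyd and 0.81 for Ctss, all larger in batch 2. It was -1.36 for Mt2 and -0.91 for Saa2, whose rises were smaller in batch 2.

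Among genes that fell in batch 2, the difference was -3.00 for Epop, -2.59 for F2r, -2.29 for Ly6g6c, -2.08 for Sprr1a, -1.96 for Mgll and -2.49 for Pbp2. It was -0.98 for Krt7, -2.15 for Cldn4, -2.03 for Hoxd10 and -1.21 for Hapln4. In defence and replication genes it was -1.12 for Cxcl9, -1.09 for Isg20 and -0.49 for Mcm2. In lipid genes it was -0.68 for Plin2 and -2.42 for Clps. In stress and folding genes it was -0.55 for Pdia4, -1.12 for Hyou1, -0.53 for Asns, -2.42 for Atf3 and -0.88 for Klf6. Maged1 and Gpr20 had differences of -1.30 and -2.10.

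Among genes not called in batch 2, the difference was -3.86 for Dbp, -1.87 for Per1, 3.16 for Arntl, 1.81 for Npas2, -2.00 for Egr1, -2.16 for Mt3 and -0.70 for Zg16. The value of Zg16 carries the limit of normalization by rank given above.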

How the results depend on the processing

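The 227 calls between GF and CONV were most sensitive to the model and to single arrays. Array weights gave 421 calls and an intensity trend with robust eBayes gave 349, while the replicate number as a block gave 18, which were all among the 227. Leaving out 1 array gave 24 to 341 calls, the highest without GF5. Without CONV4, MHC class II genes had a median of -0.10 in place of -1.40. Across the other 9 settings 180 to 322 genes were called, and 0 of the 227 reversed under any setting. For the 102 genes tracked, 319 pairs of gene and setting lost the call, 13 gained it and 0 reversed. The difference between batches was called in 615 genes, in 1188 on the deposited values turned to log2 (624 higher and 564 lower, against 288 and 327), in 290 with the replicate block, and in 310 to 889 with 1 array left out. The cause of these shifts was not tested. Rows above the control mean plus 3 SD in place of the detection filter gave 283 calls, an alternative chosen after seeing the data. The series matrix held identical values in 15132 shared rows (largest difference 0), so it was not run as a setting. With 3 arrays a group, changes of dim genes are the least certain. A bound was computed for 33 called genes, of which Apoc3 and Asns are given as changes.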
